A study of Mus musculus with 6 samples.

Results

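A set of 10 genes known from the biology of primordial germ cells was followed in sorted cells of the mouse embryo: Prdm1, Kit, Kitl, Tfap2c, Dppa3, Pou5f1, Nanos3, Ifitm1, Ifitm3 and Sall4. They were found by symbol among the probe sets that the array annotation pairs with a single gene. This gave 16 of the 45101 probe sets, which stand for 9 of the 18193 genes found in this way; the tenth member, Nanos3, was not analysed here. A filter on dim probe sets kept 15 of the 16, at least 1 for each of the 9 genes, so that 9 of the 12628 genes tested were germ cell genes. GFP-positive cells (3 arrays) were set against GFP-negative cells (3 arrays) from embryos heterozygous for Noto-GFP, on a mixed 129S3;ICR background and of mixed sex, at embryonic day 8.5 with a median of 6 somites. Noto is a homeobox gene of the node and of cells that form the notochord, and cells were split by that reporter after the tissue behind the first somites had been dissociated in 1% trypsin. Each pool of 23, 39 or 52 embryos gave 1 array of each group, and about 2600, 4300 and 6600 GFP-positive cells were sorted from pools 1, 2 and 3. An array is thus an average over many pooled embryos, and the GFP-negative cells are a mixture of all other cells of the dissected tissue.

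Primordial germ cells are the founders of eggs and sperm. In the mouse they are set aside in the posterior proximal epiblast under BMP signals, when Prdm1, Prdm14 and Tfap2c switch on, and they then appear at the base of the allantois and move along the hindgut. They keep pluripotency factors such as Pou5f1, and they depend on the receptor Kit and its ligand Kitl for survival and migration. Most of these genes are also used elsewhere in the embryo: Kit in blood progenitors and endothelium, Tfap2c in surface ectoderm and extraembryonic ectoderm, Prdm1 in several embryonic tissues, and Sall4 and Ifitm1 widely in the posterior embryo.

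Of the 9 germ cell genes, 2 were called lower in GFP-positive cells. Kitl and Prdm1 fell, by log2 fold changes of -1.27 ± 0.21 and -1.06 ± 0.23 (SE, n = 3 arrays a group; adjusted p = 0.0164 and 0.0429, limma over all genes), and no member rose. Log2 fold changes were -1.22 for Kit and -1.11 for Tfap2c, which did not pass at 0.05 in this fit and did once the pool of embryos was taken as a block. Of the 9 values, 8 were below 0 (as were 48.9% over all genes), with Ifitm1 as the exception, and the median was -0.59, against 0.01 over all 12628 genes. Of the 9 genes, 2 were called lower and 0 higher, where 1.71% of all genes were called lower and 2.95% higher. With the pool as a block, 5 were lower (Kitl, Tfap2c, Prdm1, Kit and Sall4) and 0 higher, where 5.99% of all genes were lower and 7.76% higher. At an unadjusted p under 0.05 in limma without the block, 5 were lower and 1 higher, where 10% of all genes were lower and 12.7% higher. In such bulk samples fewer cells of a type and less RNA per cell cannot be told apart. The values are array intensities, and a fold change is on the scale of log2(intensity + 32), which understates the change of dim genes.

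Both arrays of pool 1 differed from the rest in control signal ratios, so the results for the members and the counts for each gene list are also given without that pool. Signal ratios of 3′ over 5′ control probe sets for Gapdh were 14 on its GFP-positive array and 15.4 on its GFP-negative array, and 1.6 to 2.22 on the other 4 arrays. The source of this difference was not tested. Without pool 1, 6 of the 9 genes were lower (Kitl, Kit, Sall4, Tfap2c, Prdm1 and Dppa3) and 1, Ifitm1, was higher, in a fit that called 17.5% of all genes lower and 19.9% higher. Leaving out pool 2 or pool 3 gave 0 calls among the 9 genes in limma, in fits that called 5 or 52 of all genes higher (0.0396% or 0.412%) and 0 or 7 lower (0% or 0.0554%), so the 0 says nothing particular to the members. At an unadjusted p under 0.05, 0 members were higher and 3 lower without pool 2, where 4.88% of all genes were higher and 3.24% lower. Without pool 3, 0 were higher and 4 lower, where 5.69% of all genes were higher and 3.9% lower. Leaving out GFP-negative array 1 alone let 5 further members pass: Kit, Tfap2c, Sall4 and Dppa3 lower and Ifitm1 higher (adjusted p = 0.00496, 0.021, 0.0104, 0.0207 and 0.0201 in limma). That fit called 11% of all genes higher and 10.9% lower. All 10 markers listed for node and notochord rose in GFP-positive cells. Their summed intensity was 10200 to 14410 on GFP-positive and 525 to 956 on GFP-negative arrays. That list was chosen with earlier results of these data known, so it is not an independent check of the sort.

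**Figure D1:**
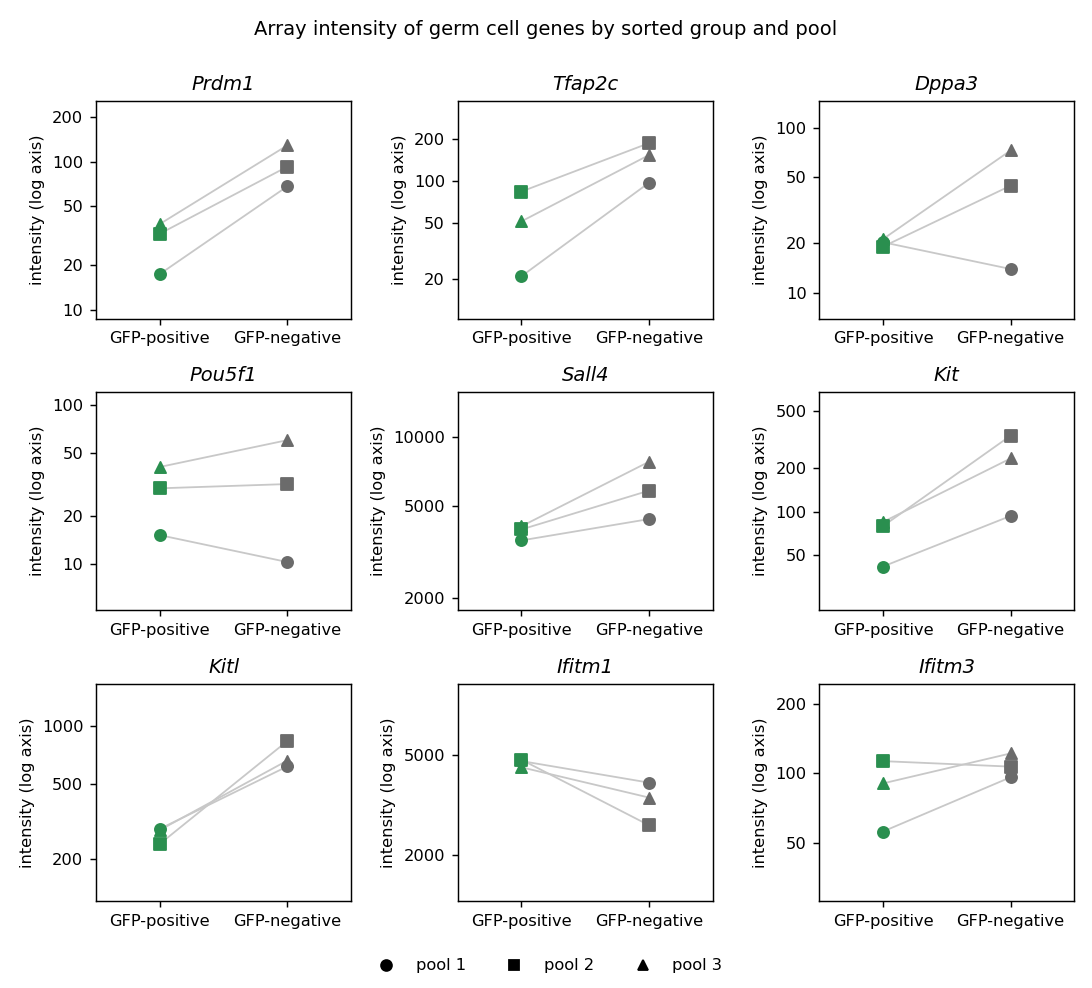
Intensity (log axis, 1 scale per panel) of the probe set that stands for each of the 9 genes, with GFP-positive arrays on the left and GFP-negative arrays on the right; marker shapes and grey lines join arrays of 1 embryo pool. Kitl, Kit, Prdm1, Tfap2c and Sall4 are lower on all 3 GFP-positive arrays than on any GFP-negative array, and Ifitm1 is higher on all 3.

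Promoter sequence is shown for Prdm1, Kit and Kitl, the repressor and the receptor and ligand pair. By the probe set that stands for each gene, their intensities were lower on every GFP-positive array than on any GFP-negative one. The same held for Tfap2c and Sall4, and for 12.2% of all genes. Sequences are from RefSeq (GRCm38.p6), whose promoter table held 7 of the 10 genes, and each ends at the base before an annotated transcript start. The windows are chr10:44458749-44458998 on the minus strand for Prdm1 and chr5:75574737-75574986 on the plus strand for Kit, both 250 bases long. Only the last 30 bases, chr10:100015791-100015820 on the plus strand, are shown for Kitl, since RefSeq's extent of that gene begins inside the 250-base window, upstream of the start used here. Capitals mark the AP-2 motif GCCNNNGGC, bound by the Tfap2 family, the GC box GGGCGG and the TATA box TATAAA, searched on both strands and chosen after the sequences had been read.
Prdm1: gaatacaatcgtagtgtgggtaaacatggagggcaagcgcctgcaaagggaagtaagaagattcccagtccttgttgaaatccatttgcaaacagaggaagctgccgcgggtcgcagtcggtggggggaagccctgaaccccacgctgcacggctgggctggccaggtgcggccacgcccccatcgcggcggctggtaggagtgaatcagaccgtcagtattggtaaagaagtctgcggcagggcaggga
Kit: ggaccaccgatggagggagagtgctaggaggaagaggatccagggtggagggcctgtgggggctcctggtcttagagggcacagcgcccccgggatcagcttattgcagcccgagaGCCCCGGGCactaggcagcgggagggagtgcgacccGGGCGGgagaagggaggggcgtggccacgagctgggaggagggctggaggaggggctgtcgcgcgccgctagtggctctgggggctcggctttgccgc
Kitl: agctgTATAAAaagcgctggcggcgcagca
In the Kit window the AP-2 motif began 134 bases and the GC box 98 bases before the start. In the full window of 250 bases for Kitl, GC boxes began 143, 45 and 41 bases and the TATA box 25 bases before the start. The last 2 of these GC boxes share bases, and all of these matches lie within the gene's RefSeq extent. None of the 3 motifs was found in the Prdm1 window. Of all 32851 windows of the same length in the table, 13.7% held the AP-2 motif, 32.7% the GC box and 12.4% the TATA box. These matches describe the letters of the windows and say nothing of binding.

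Prdm1 encodes the zinc finger repressor Blimp1, which shuts down the somatic programme in germ cell precursors. Its intensity was 17.4, 32.6 and 37.9 on GFP-positive arrays 1, 2 and 3, against 68.2, 92.6 and 129 on GFP-negative arrays. The groups did not overlap, and the highest GFP-positive value lay below the lowest GFP-negative one. Within pools the log2 differences were -1.02, -0.95 and -1.2, the narrowest spread among the members that were lower in every pool. The adjusted p of 0.0429 became 0.00809 in the blocked fit and 0.00279 without pool 1. Adjusted over all 27821 kept probe sets in place of genes, it was 0.0688, and without any filter on dim probe sets 0.0788. It was also above 0.05 without any 1 of the GFP-positive arrays (0.0895, 0.147 and 0.124 without arrays 1, 2 and 3) and when GFP-negative array 2 (0.151) or 3 (0.114) was left out. On the GFP-positive arrays it lay at the 45th to 60th percentile of all probe sets, so its lower values may lie within background.

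Tfap2c encodes the transcription factor AP-2 gamma, which acts with Prdm1 and Prdm14 in germ cell specification. The brightest of its 3 probe sets had 21, 84.1 and 51.6 on GFP-positive arrays and 97.2, 186 and 153 on GFP-negative arrays. Each GFP-positive array was below each GFP-negative one, and array 1 was the lowest of its group on both sides. The log2 fold change was -1.11 ± 0.32 (adjusted p = 0.0898 in limma). Taking the pool as a block gave an adjusted p of 0.00768, and leaving out pool 1 gave 0.005. A second probe set had the same sign, with 4.16, 8.97 and 0.76 against 15.2, 25.9 and 24.3. It lay near or below the array median throughout. It passed the filter through its GFP-negative arrays alone, which favours a negative sign, so it adds no separate support. The last was not kept by the filter, reached 15.1 at most and overlapped between the groups. Its log2 differences within pools 1, 2 and 3 were -0.28, 0.27 and -0.04. The paralogue Tfap2a, a factor of surface ectoderm and neural crest, fell by 1.39 ± 0.17 (adjusted p = 0.00591). Its intensities were 17.5, 13.9 and 22.7 in GFP-positive cells, against 103, 113 and 83.1 in GFP-negative cells.

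Kitl encodes stem cell factor, the ligand that germ cells, blood progenitors and melanoblasts need, and it is made by the cells that surround them. Its brightest probe set had 289, 241 and 285 on GFP-positive arrays, against 615, 836 and 660 on GFP-negative arrays. These are 3 tight values below 3 others, with no overlap between the groups. Mean intensity was 271 ± 26.7 in GFP-positive and 704 ± 117 in GFP-negative cells (SD, n = 3 each), a difference of 2.41 times on the offset scale. Beside the adjusted p of 0.0164 stood 0.00749 in the blocked fit and 0.000426 without pool 1. Kitl no longer passed without GFP-positive array 2 (adjusted p = 0.0986 in limma) or 3 (0.085), nor without GFP-negative array 2 (0.0994) or 3 (0.0554). Over all probe sets this one had an adjusted p of 0.0282.

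The other 3 probe sets of Kitl were dimmer and did not pass. Intensities of one were 67.7, 40.8 and 45 in GFP-positive cells, against 89, 109 and 87.2 in GFP-negative cells, and of another 17.2, 17.2 and 7.16 against 31.7, 35.2 and 53.8. Both separated the groups in the same direction, with log2 fold changes of -0.62 ± 0.21 and -0.65 ± 0.18 (adjusted p over probe sets = 0.163 and 0.118 in limma). The last, at 7.39 to 17.8 on all arrays, overlapped between the groups and had -0.06 ± 0.14.

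Kit encodes the receptor tyrosine kinase for that ligand, present on germ cells and on blood and endothelial progenitors. Its brighter probe set had 41.6, 79.2 and 84.6 on GFP-positive arrays, against 93.2, 335 and 233 on GFP-negative arrays. The groups did not overlap, but GFP-negative array 1 stood close to GFP-positive arrays 2 and 3. The log2 fold change was -1.22 ± 0.39 (adjusted p = 0.114 in limma), with -0.77, -1.72 and -1.18 within pools 1, 2 and 3. With the pool as a block the adjusted p was 0.0129, and without pool 1 the value was -1.45 ± 0.19 (adjusted p = 0.000732). The dimmer probe set had 6.95, 14.3 and 12.8 against 12.5, 25.3 and 20.4, which overlap and lie at or below the array medians apart from 1 array, and its log2 fold change was -0.24 ± 0.15. Receptor and ligand were thus both at lower intensity in GFP-positive cells in their brightest probe sets. On the log2(intensity + 32) scale, which compresses dim probe sets, the brightest one of each gene also had the largest difference.

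**Figure D2:**
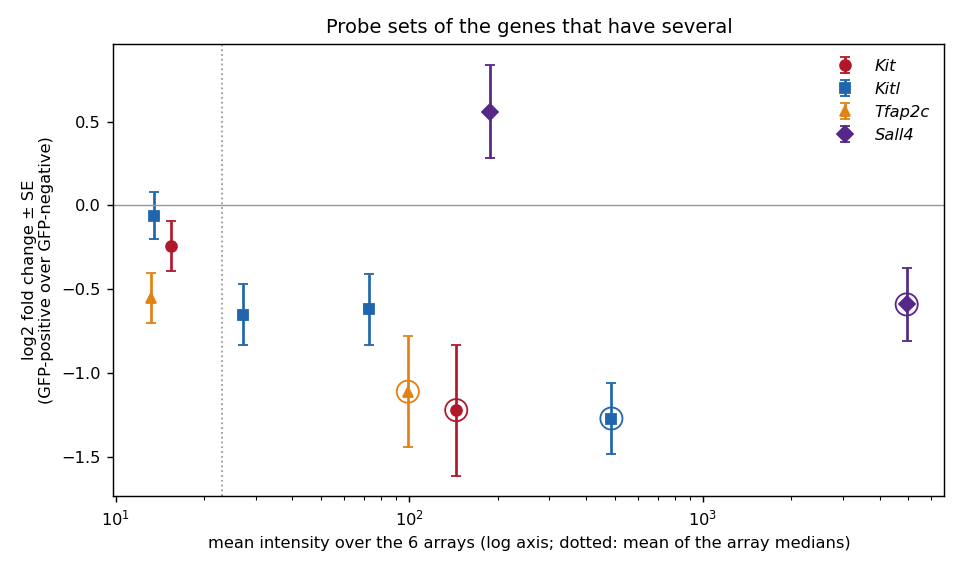
Log2 fold change (GFP-positive over GFP-negative, ± SE, limma without the block) against mean intensity over the 6 arrays (log axis) for the kept probe sets of Kit, Kitl, Tfap2c and Sall4; a ring marks the probe set that stands for the gene, and the dotted line is the mean of the array medians. All kept probe sets of Kit, Kitl and Tfap2c lie below 0, and those of Sall4 lie on opposite sides, at -0.59 and 0.56. The dimmer one of Tfap2c passed the filter through GFP-negative arrays alone, which favours a negative value.

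Genes downstream of the receptor did not pass. Of 15 listed for KIT signalling, 14 were tested and 0 were higher or lower, without the block or with it (0 also at an unadjusted p under 0.05 in limma), and the list's median was 0.04. Sos1, an exchange factor for Ras, and Pik3ca, a catalytic subunit of PI3 kinase, had the largest values, at -0.44 ± 0.21 and -0.50 ± 0.38, with the opposite sign in the 1 other kept probe set of Sos1 and in 2 of the 5 others of Pik3ca. Without pool 1, 1 of the 14 was higher and 4 were lower. Over all genes 2.95% were higher and 1.71% lower without the block, and 7.76% and 5.99% with it. At the unadjusted p these shares were 12.7% and 10%, and without pool 1 they were 19.9% and 17.5%.

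Sall4, a zinc finger factor shared by pluripotent cells, germ cells and the tail bud, was bright on every array. Its brighter probe set had 3555, 3965 and 4092 in GFP-positive cells, against 4398, 5839 and 7785 in GFP-negative cells. The GFP-positive values were close together and all below the GFP-negative ones. The log2 fold change was -0.59 ± 0.22 (adjusted p = 0.157 in limma), and it passed narrowly in the blocked fit (adjusted p = 0.0487), though not when the blocked fit was adjusted over all probe sets (0.0575). Without pool 1 it was -0.74 (adjusted p = 0.00473). Its other probe set went the other way, with 175, 266 and 241 against 213, 120 and 110, so that the groups overlapped through pool 1. That probe set had a log2 fold change of 0.56 ± 0.28 (adjusted p over probe sets = 0.312), and within pools -0.24, 0.97 and 0.95. With the mean of both probe sets the value for Sall4 was -0.02, so its direction depends on the probe set. Its paralogue Sall1, a factor of kidney and limb development, had 1.05 ± 0.45 (adjusted p = 0.218 in limma), and passed with the block (0.018) and without pool 1 (0.000343).

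Dppa3, also called Stella, is a maternal and germ cell protein whose gene is restricted to germ cells at this stage. Its intensity was 20.2, 19 and 21.1 on GFP-positive arrays, against 13.9, 44.5 and 72.8 on GFP-negative arrays. GFP-positive values lay at the 48th to 51st percentile of their arrays, while GFP-negative arrays 2 and 3 stood at the 61st and 68th and array 1 at the 39th. The groups overlapped through GFP-negative array 1, and the log2 differences within pools were 0.19, -0.58 and -0.98. The log2 fold change of -0.46 ± 0.28 did not pass (adjusted p = 0.355 in limma), nor did it with the block (0.208). Without pool 1 it was -0.78 ± 0.20 (adjusted p = 0.0155), and without GFP-negative array 1 it was -0.78 (adjusted p = 0.0207).

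Pou5f1, the pluripotency factor Oct4 that germ cells retain after somatic cells lose it, did not separate the groups. It had 15.2, 29.9 and 40.7 in GFP-positive cells, against 10.3, 31.8 and 60 in GFP-negative cells. In both groups pool 1 was lowest and pool 3 highest, and the groups overlapped. The log2 fold change was -0.08 ± 0.29 (adjusted p = 0.902 in limma), and its sign changed with the scaling, at 0.01 after quantile normalization and 0.03 after median scaling. Without pool 1 it was -0.19 (adjusted p = 0.513).

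The interferon-induced transmembrane genes Ifitm1 and Ifitm3, which encode the small membrane proteins fragilis 2 and fragilis, both lie on chromosome 7. Ifitm1 had 4721, 4780 and 4461 on GFP-positive arrays, against 3879, 2632 and 3386 on GFP-negative arrays. It was the 1 member brighter on every GFP-positive array, with no overlap between the groups. Its log2 fold change of 0.51 ± 0.18 did not pass (adjusted p = 0.151 in limma), nor with the block (0.0738), and passed without pool 1 (adjusted p = 0.00846). Ifitm3 had 56.2, 113 and 90.6 against 96.3, 107 and 122, which overlap. Its log2 fold change was -0.27 ± 0.23 (adjusted p = 0.511), or -0.13 without pool 1 (adjusted p = 0.555), and the difference between the 2 genes was not tested.

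**Figure D3:**
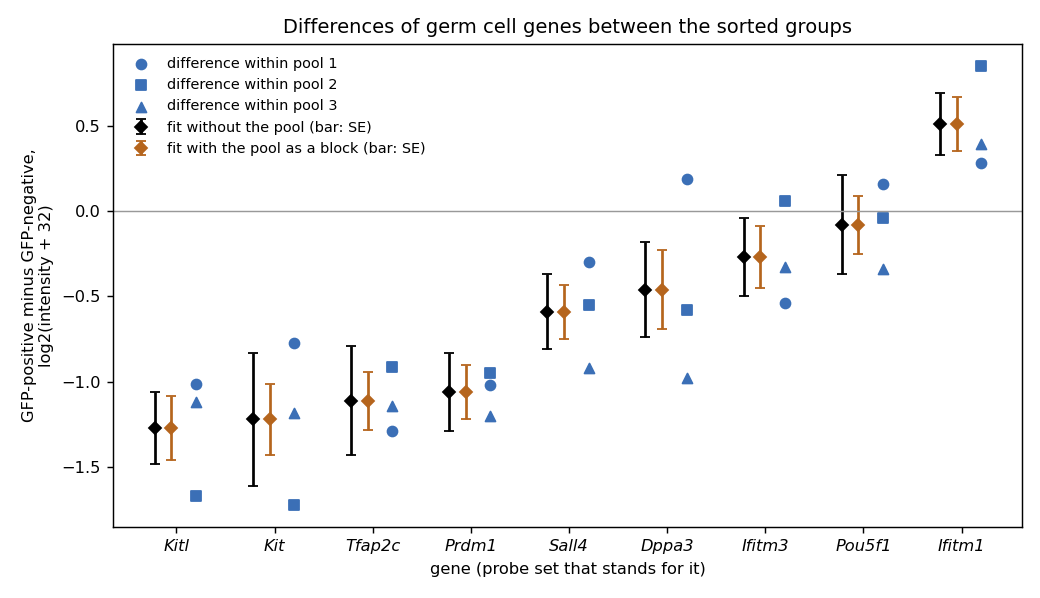
GFP-positive minus GFP-negative difference in log2(intensity + 32) for each gene's chosen probe set, ordered from lowest to highest; black and brown diamonds show the fits without and with the pool as a block (± SE), and blue markers show the 3 within-pool differences. Kitl, Kit, Tfap2c, Prdm1 and Sall4 are below 0 in all 3 pools, Ifitm1 is above 0 in all 3, and Dppa3, Pou5f1 and Ifitm3 have both signs.

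Of the 9 genes, 5 had every GFP-positive array below every GFP-negative array, and 1 had the opposite; of all genes, 12.2% and 15.6% did so. The same 5 genes had a negative difference in all 3 pools, as did 24.9% of all genes. Over the 6 arrays, log2 values of Prdm1 correlated at Pearson's r of 0.89 with Kit, 0.88 with Kitl, 0.91 with Tfap2c and 0.95 with Sall4. Ifitm1 correlated at -0.94 with Kit and -0.93 with Kitl. These 6 points share pools and the sort itself, so the coefficients are descriptions only.

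Genes whose pattern over the 6 arrays was most like a member were sought among those with a mean intensity of at least 100. For Prdm1 they were Reep1 (r = 0.996), the RNA polymerase II subunit Polr2b (0.996) and Capn6 (0.992). Msantd2, Swap70 and Slc35a3 were closest to Kit (0.998, 0.993 and 0.992), and Zfp449, Jade3 and Gnai3 to Kitl (0.993, 0.993 and 0.992). The closest to Tfap2c were Setd5, Csrp2 and the zinc finger factor Sp6 (0.989, 0.989 and 0.987), and those to Sall4 were Hoxc6, Dnajb1 and Tbc1d5 (0.994, 0.993 and 0.992). Sp6 fell by 1.70 in GFP-positive cells (adjusted p = 0.0492 in limma); none of the other 14 passed. For each of the 5 members 7182 or 7183 genes were compared, and with 6 arrays coefficients this high were met for all 5.

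A wider list of germ cell genes was mostly dim. Of 20 listed, all 20 had a probe set and 12 were tested; Nanog, Dppa2, Zfp42, Ddx4, Dazl, Rhox6, Gtsf1 and Mael were too dim for the filter. In limma 0 of the 12 were higher or lower without the block, and 1, Elavl2, was lower with it; at an unadjusted p under 0.05, 0 were higher and 2 lower. Elavl2, an RNA-binding protein of neurons and germ cells, had 255, 253 and 288 in GFP-positive cells and 454, 433 and 481 in GFP-negative cells. These groups did not overlap, and the log2 fold change was -0.71 ± 0.19 (adjusted p = 0.069, and 0.0278 with the block); Elavl2 has 4 other kept probe sets. Without pool 1 it was lower (adjusted p = 0.00619) and 1 gene, Sox2, was higher (0.0411). The list's median was -0.12. Shares of all genes called higher and lower were 2.95% and 1.71% without the block, and 7.76% and 5.99% with it. They were 12.7% and 10% at the unadjusted p, and 19.9% and 17.5% without pool 1.

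Signals that induce germ cells did not pass without the block either. Of 15 listed, 12 were tested, 0 were higher or lower in limma (0 and 2 at an unadjusted p under 0.05), and with the block 2 were lower. Bmp4, the BMP ligand of extraembryonic and posterior mesoderm, had 47, 107 and 97 against 123, 181 and 204, a log2 fold change of -0.82 ± 0.28 (adjusted p = 0.131, and 0.0215 with the block). Id2, a target of BMP signalling, had 277, 547 and 485 against 1040, 929 and 667, at -0.99 ± 0.29 (adjusted p = 0.0948, and 0.0457 with the block). For both genes every GFP-positive array was below every GFP-negative one. Without pool 1, 4 of the 12 were lower (Bmp4, Id2, Id1 and Bmpr2) and 1, Smad5, was higher. Over all 6 arrays, 1 of the 2 other kept probe sets of Smad5 had the opposite sign. Of all genes, 1.71% were lower and 2.95% higher without the block, and 5.99% and 7.76% with it. The shares were 10% and 12.7% at the unadjusted p, and 17.5% and 19.9% without pool 1.

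Of 13 genes of germ cell migration and survival, 11 were tested, and 2 rose while 0 fell. Both encode adhesion molecules that epithelia also use. Cdh1, E-cadherin, had 720, 540 and 520 against 118, 127 and 130 and rose by 1.98 ± 0.21 (adjusted p = 0.00284). Epcam had 503, 817 and 878 against 163, 352 and 228 and rose by 1.47 ± 0.31 (adjusted p = 0.0399), while the sign was opposite in its 1 other kept probe set. Without pool 1 the list held 4 genes higher and 5 lower. Ror2 and Bcl2l1 then joined Cdh1 and Epcam, and the lower ones were Itgb1, Cxcl12, Fgfr2, Ackr3 and Gja1. Over all 6 arrays the sign was opposite in the 1 other kept probe set of Ror2 and in 1 of the 5 others of Gja1. The gene with the largest change among the lower ones, integrin beta 1 (Itgb1), had 264, 388 and 492 in GFP-positive cells, against 249, 1708 and 1476 in GFP-negative cells. Its log2 fold change was -1.17 (adjusted p = 0.309), and -1.79 without pool 1 (adjusted p = 0.000119). The genes that passed without pool 1 alone were named after their values had been seen. Of 22 relatives of the members, 13 were tested, 0 rose and 1, Tfap2a, fell. With the block 1 was higher, Sall1, and 3 were lower: beside Tfap2a, Prdm6 and Csf1r, a receptor of the same class as Kit, also passed, at -0.81 ± 0.20 and -0.79 ± 0.20 (adjusted p = 0.035 and 0.0394 with the block). Without pool 1, 2 of the 13 were higher and 5 lower. Beside the counts of both lists, 2.95% of all genes were higher and 1.71% lower without the block. With the block these shares were 7.76% and 5.99%, and without pool 1 they were 19.9% and 17.5%.

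**Figure D4:**
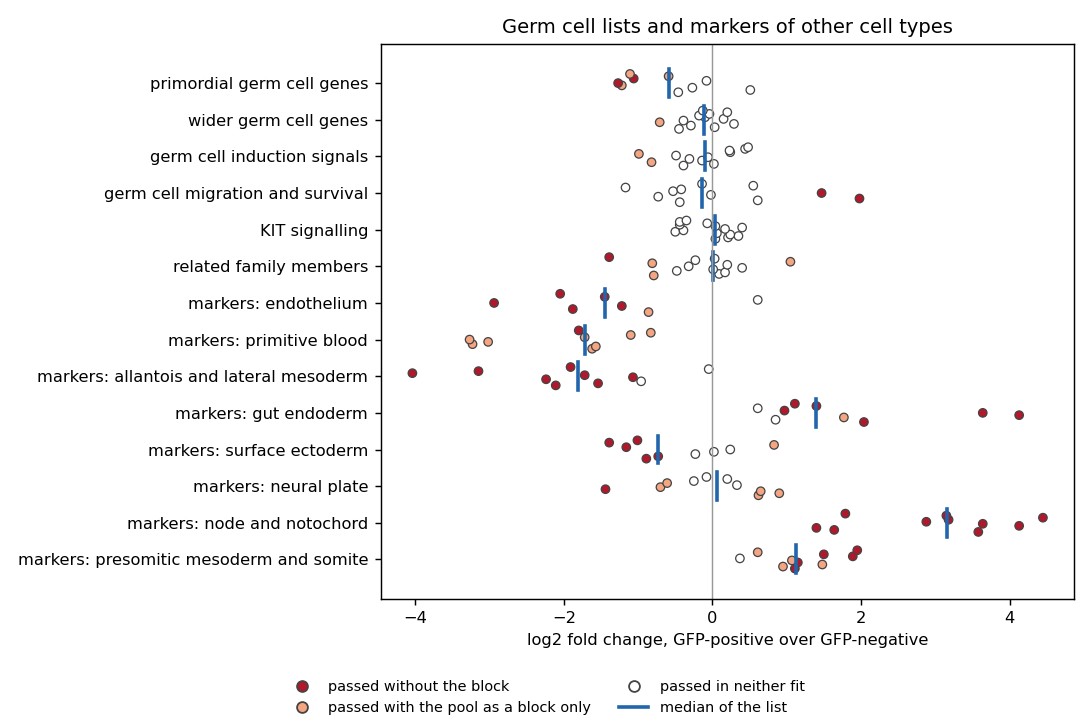
Log2 fold change (GFP-positive over GFP-negative) of each tested gene in the germ cell lists and in marker lists of other cell types; filled points passed at an adjusted p under 0.05 without the block, light points only with the pool as a block, and blue bars are medians. The 9 germ cell genes have a median of -0.59, between surface ectoderm markers at -0.73 and migration and survival genes at -0.14.

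Marker lists of other cell types in the tissue were set beside these values. Over all genes 1.71% fell and 2.95% rose, or 5.99% and 7.76% with the block. Of 7 endothelial markers tested, 5 fell and 0 rose, with the VEGF receptor Kdr at -2.94 and the endothelial factor Sox7 at -1.45. Their summed intensity was 383 to 726 on GFP-positive and 1558 to 2215 on GFP-negative arrays, where Kdr alone had 765 to 1099. Of 9 primitive blood markers 1, the haematopoietic factor Tal1, fell by 1.8 ± 0.3, and all 9 were lower with the block. Nfe2 and Lyl1 among them passed the filter on dim probe sets through GFP-negative arrays alone, which favours lower values. The sum of the 9 was 350 to 5816 on GFP-positive and 12156 to 27171 on GFP-negative arrays, most of it from Hbb-y and Hbb-bh1. Of 10 markers of allantois and lateral mesoderm, 8 fell and 0 rose, with sums of 469 to 793 against 2550 to 6035. Vcam1 among the 8 also passed the filter through GFP-negative arrays alone.

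Of 9 surface ectoderm markers, which include Tfap2a, 5 fell and 0 rose, and the sums of the 9 were 410 to 621 against 708 to 914. Among the 5, Dlx5 and Gata3 passed the filter through GFP-negative arrays alone. Msx1 had 184, 139 and 146 against 270, 407 and 524, and without it the sums of the groups overlap. Krt5, Perp, Grhl2 and Grhl3 did not pass, with Perp at 0.83 ± 0.26. Among gut endoderm markers 6 of 9 were higher and 0 lower, with sums of 4218 to 4770 against 911 to 1290. This list shares Foxa1 and Foxa2 with the node list and Sox17 with the endothelial list. Of 10 presomitic and somite markers 5 rose and 0 fell, with sums of 5956 to 7367 against 2264 to 2778, and of 10 neural plate markers 0 rose and 1, Nkx1-2, fell, with sums of 4934 to 5246 against 4389 to 5580. With the pool as a block, 6 endothelial, 8 lateral mesoderm and 5 surface ectoderm markers were lower, and 7 gut endoderm, 9 presomitic and 1 surface ectoderm markers were higher; of the neural plate markers 3 were higher and 3 lower. Without pool 1, the lower markers were 6 endothelial, 9 blood, 9 lateral mesoderm, 5 surface ectoderm and 3 neural plate ones. The higher ones were then 10 node, 9 gut endoderm, 9 presomitic, 4 neural plate, 1 endothelial and 1 surface ectoderm markers. The endothelial one was Sox17, which is also counted for gut endoderm. The fit without pool 1 called 17.5% of all genes lower and 19.9% higher. In every list 0 markers were listed at 0 on any array. The part of these cell types in the values of Kit, Kitl, Tfap2c and Prdm1 was not tested.

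**Figure D5:**
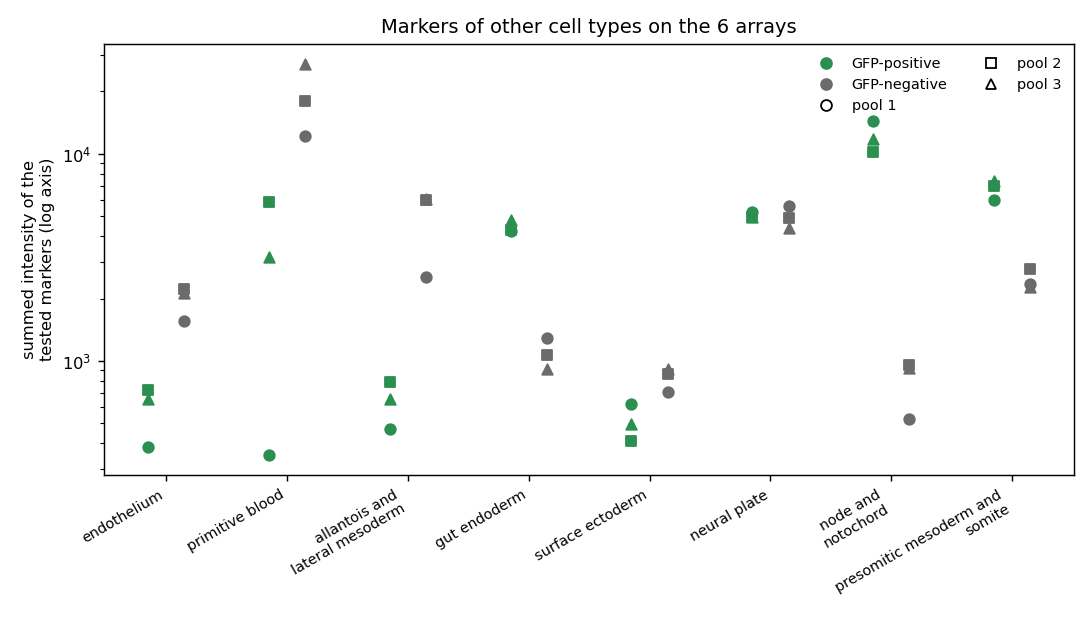
Summed intensity (log axis) of the tested markers of 8 cell types on the GFP-positive (green, left) and GFP-negative (grey, right) arrays, with marker shapes for the pools. Endothelial, blood, lateral mesoderm and surface ectoderm sums are lower on all 3 GFP-positive arrays, and those of node, gut endoderm and presomitic mesoderm are higher. Without Msx1 the surface ectoderm sums of the groups overlap, and the neural plate sums overlap as shown.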

How the data were processed

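The authors deposited 1 linear intensity per probe set and array, from 1-colour hybridizations. GCOS 1.4 is named in the submitters' processing notes. Per the labels' protocols, RNA was amplified with a 2-cycle Affymetrix kit. The values show each array scaled by the authors to a trimmed mean of 150. Detection calls were not used here. The number of arrays limits the precision, and 0 columns were left out.

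Intensities were taken to log2(value + 32). A probe set was kept if 3 of 6 arrays had it at or above the array's 40th percentile (27821 of 45101, without 64 controls). The annotation gave 1 symbol to 34945 probe sets and several to 932. The brightest kept probe set on average stood for a gene, and the 12628 genes were fitted with limma 3.58.1 in R 4.3.3 (lmFit, eBayes with a variance trend, group as the only term; Benjamini-Hochberg, 0.05). Probe sets were fitted in the same way. Where arrays or pools were left out, the same genes and probe sets were kept. Same-numbered arrays come from 1 embryo pool, per the labels; their deviations from group means correlated at 0.542, 0.286 and 0.436. Named genes are all members, up to 5 genes of each list that passed in either fit (or the 2 largest changes), and the 3 genes most alike. The fit was tested on simulated data. The members and lists were chosen with earlier results of these data known.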

Additional observations from a re-analysis of the deposited data

How the results depend on the processing

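Under 18 alternatives, the values lay between -1.40 and -0.65 for Kitl, -1.31 and -0.77 for Prdm1, -1.66 and -0.73 for Kit, -1.38 and -0.82 for Tfap2c, -0.80 and -0.02 for Sall4, -0.78 and -0.19 for Dppa3, -0.43 and -0.07 for Ifitm3, and 0.34 and 0.63 for Ifitm1, with 1 sign for each. Kitl passed in 12 of the 18 and Prdm1 in 10. Pou5f1 changed sign in 5: with quantile normalization (0.01), median scaling (0.03), without GFP-positive array 1 (0.09), without GFP-negative array 3 (0.20) and without pool 3 (0.06); leaving out 1 array gave Pou5f1 values from -0.36 to 0.20. No alternative gave Pou5f1 or Ifitm3 an adjusted p under 0.05.

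Main counts were 0 germ cell genes higher, 2 lower, 372 of all genes higher and 216 lower. With no filter, 1 germ cell gene was lower, and 233 and 101 of all genes were higher and lower; more genes were tested there. With the pool as a replicate block, 5 germ cell genes were lower and 980 and 757 of all genes passed. Leaving out 1 array gave 0 to 1 germ cell genes higher and 0 to 6 lower, 69 to 1393 of all genes higher and 15 to 1380 lower. Without pool 1, 1 and 6 germ cell genes and 2511 and 2213 of all genes were higher and lower; adding the block (tried only once the data had been seen) gave 1, 6, 2878 and 2645. Without pool 2, 0 germ cell genes were lower and 5 and 0 of all genes passed; without pool 3, 0 were lower and 52 and 7 of all genes passed. Apart from the construction named, the cause was not tested. Median scaling moved the median log2 fold change of all genes to 0.11. Dim probe sets, such as those of Dppa3, Pou5f1 and Prdm1 in GFP-positive cells, lie near the array medians, where intensity over background limits what can be read. With 3 separate pools, p-values without the block rest on the spread between arrays of a group and treat arrays of the same pool as independent. With the block they rest on the spread of the differences within pools. In both fits limma moderates each gene's variance with that of other genes.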
